A study of Homo sapiens with 6 samples.

Results

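The transcripts of 10 immediate early genes outside the AP-1 family, EGR1, EGR3, IER2, IER3, IER5, KLF2, KLF4, KLF6, KLF10 and GADD45B, were followed in HCT116 cells with and without knockdown of the long non-coding RNA GMDS-AS1. They were selected by symbol as genes known to be induced by serum or stress. The rule used no measured value, but it was written with earlier results of these data known. Each of the 10 symbols was found once among the 60662 genes with a value, and all 10 were among the 16901 genes tested. HCT116 is an established human colorectal carcinoma cell line, grown here in McCoy's 5a medium with 10% fetal bovine serum. The control group, shCtrl, consisted of 3 libraries from cells stably carrying a lentiviral plasmid with a non-targeting short hairpin RNA, and the labels give their genotype as WT. The knockdown group, KD, consisted of 3 libraries from cells stably carrying the plasmid for GMDS-AS1 shRNA2. The 3 libraries of each group were labelled as biological replicates, both groups carried a hairpin, no serum or stress stimulus was named for either group, and the knockdown rested on a single hairpin sequence.

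Immediate early genes are transcribed within minutes of a growth factor or stress signal, without the need for newly made protein. Their promoters are activated through serum response factor with its ELK partners, through CREB and through the MAP kinases that phosphorylate these factors, and many of their short-lived mRNAs carry AU-rich elements. Several of them encode transcription factors that pass the signal on to later genes, and in intestinal epithelium members of the group are known for roles in growth, wound response and differentiation.

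Abundance was given as TPM, the share of a gene among all transcripts of a library after correction for transcript length, so that levels of different genes may be set side by side. Differences were computed as KD minus shCtrl on log2(TPM + 1) after scaling of the libraries, with the standard error (SE) from limma and the p adjusted by the Benjamini-Hochberg method over all genes tested. On this scale the change of genes with a low TPM is understated. A gene was called at an adjusted p under 0.05. The read total of a library cannot be recovered from TPM, so depth is unknown.

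The targeted transcript was examined first. GMDS-AS1, listed under the symbol GMDS-DT, measured 1.66, 2.21 and 1.34 TPM in shCtrl and 0.88, 0.91 and 0.79 TPM in KD. The groups did not overlap, and the log2 difference was -0.41 (SE 0.14, limma adjusted p = 0.0407). This call rested on a low level and was kept in 1 of the 6 fits that left out a library, the one without shCtrl replicate 3. Of the epithelial markers, KRT8, KRT18, KRT19, EPCAM, CDH1 and CLDN4 passed the filter. VIL1, also listed, reached at most 0.41 TPM in any library and was not tested. The marker list summed to 9359 to 9813 TPM in shCtrl and 3638 to 3747 TPM in KD, a sum made up mostly of keratins. The markers did not move together: KRT18 (-1.83), KRT8 (-1.46) and KRT19 (-0.26) were called lower, CLDN4 (0.29) was called higher after scaling but not with TPM as deposited (0.05), and EPCAM and CDH1 were not called. The markers of leukocytes, fibroblasts and endothelium summed to at most 23.1 TPM in any library, PTPRC was listed at 0 in all 6, and the 2 markers that passed the filter were not called. The part of the KRT8 and KRT18 fall in the results below was not tested. In bulk RNA, fewer cells that express a gene and less RNA per cell cannot be told apart.

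Promoters of 7 of the 10 genes were found in the RefSeq table of 300-base promoters (GRCh38.p14, 250 bases before to 50 after the transcript start), and both strands were searched for motifs of the serum, cAMP and EGR responses. A pair of CArG boxes, the core of the serum response element bound by serum response factor, was present in EGR1 and in none of the other 6, while 1.29% of 35116 promoters held at least 1 (1.1% of the 15977 promoters of tested genes). The short cAMP response site TGACG was present in EGR1, IER2 and KLF4, against 24.6% of all promoters and 31.6% of those of tested genes. The full site TGACGTCA, which contains the short one, was present in none, against 1.85% of all promoters and 2.78% of those of tested genes. The EGR site GCGNGGGCG was present in EGR1, KLF2, KLF4, KLF6 and GADD45B, against 9.43% of all promoters and 14.7% of those of tested genes. TATAAA was present in GADD45B alone, against 11.5% of all promoters and 6.43% of those of tested genes. All 7 promoters were rich in G and C (61.7% to 80.7%), and no match of these letters was present in IER5. A match is a description of the sequence and not a bound site.

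The 250 bases before the start are printed for 3 genes. EGR1 is shown for its CArG boxes, IER2 because its profile over the libraries was the one most like that of EGR1 within the group, and GADD45B because it fell most. They lie at chr5:138465229-138465478, chr19:13150161-13150410 and chr19:2475877-2476126, all on the plus strand, and are written 5′ to 3′. Capitals mark the motif matches on either strand. In EGR1 these are, in order, the EGR site, a short cAMP response site, the CArG boxes whose first bases lie at -105 and -83 from the start, and a further short cAMP response site. In IER2 the capitals mark a short cAMP response site, and in GADD45B an EGR site and then TATAAA with its first base at -31.
EGR1: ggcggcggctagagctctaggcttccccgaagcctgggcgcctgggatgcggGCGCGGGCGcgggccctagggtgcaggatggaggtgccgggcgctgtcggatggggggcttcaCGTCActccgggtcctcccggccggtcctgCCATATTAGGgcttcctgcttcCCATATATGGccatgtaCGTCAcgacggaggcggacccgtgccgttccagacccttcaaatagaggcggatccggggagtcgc
IER2: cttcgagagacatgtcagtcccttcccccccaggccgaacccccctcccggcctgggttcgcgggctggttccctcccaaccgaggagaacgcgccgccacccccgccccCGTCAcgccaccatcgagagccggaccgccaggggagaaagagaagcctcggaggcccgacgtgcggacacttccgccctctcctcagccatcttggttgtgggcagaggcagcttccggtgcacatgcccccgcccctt
GADD45B: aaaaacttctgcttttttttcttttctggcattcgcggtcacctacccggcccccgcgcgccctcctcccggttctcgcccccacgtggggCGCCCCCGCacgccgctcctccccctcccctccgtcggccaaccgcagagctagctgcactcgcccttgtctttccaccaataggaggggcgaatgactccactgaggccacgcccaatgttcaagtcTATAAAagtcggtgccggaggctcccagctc

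All 10 genes were lower in KD and called, and none was higher. For comparison, 25.9% of all genes tested were called lower and 28.5% were called higher. In 5 of the 10, GADD45B, KLF2, EGR3, EGR1 and IER3, the scaled level fell at least 2-fold, whereas 4.24% of all genes were called with such a fall. For each of the 10, the lowest shCtrl library lay above the highest KD library, both as deposited and after scaling, and 30.3% of all genes showed this pattern after scaling. The median log2 difference of the 10 genes was -0.90, beside -0.002 for all genes tested. Scaling raised the KD libraries relative to shCtrl by a log2 value of 0.25, and with TPM as deposited the median of all genes was -0.20, so that the falls given here are smaller, and the rises larger, than those between the TPM values printed beside them.

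The EGR genes encode zinc finger transcription factors that bind GC-rich sites in the promoters of later response genes. EGR1, on chromosome 5 (chr5:138465490-138469315, plus strand, GENCODE v29 on GRCh38), stood at 200.29, 204.75 and 204.54 TPM in shCtrl and at 79.35, 79.06 and 77.56 TPM in KD. The libraries of a group lay close together, with a coefficient of variation of 1.24% in shCtrl and 1.22% in KD. The KD mean was 38.7% of the shCtrl mean as deposited and 46% after scaling, a log2 difference of -1.11 (SE 0.03, limma adjusted p = 8.83e-07).

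EGR3, a relative of EGR1 with its own function in muscle spindles and lymphocytes, was the least abundant of the 10 in both groups. It stood at 7.54, 7.36 and 6.89 TPM in shCtrl and at 1.76, 1.68 and 2.51 TPM in KD. KD replicate 3 was the highest of its group and still below every shCtrl library. The log2 difference was -1.29 (SE 0.12, limma adjusted p = 0.000141), and the scaled KD mean was 32.4% of the shCtrl mean. Within each library, EGR1 was 26.6, 27.8 and 29.7 times as abundant as EGR3 in shCtrl and 45.1, 47.1 and 30.9 times in KD, a ratio that does not depend on the scaling between libraries.

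The IER genes are named for their rapid induction. IER3, an inducible regulator of cell survival and of ERK signalling, was the most abundant of the 10 genes and alone made up 61.2% to 63.1% of their summed TPM in shCtrl and 58.6% to 59.9% in KD. It lies on chromosome 6 (chr6:30743199-30744554, minus strand). Its level was 1385.01, 1372.97 and 1319.27 TPM in shCtrl and 553.51, 554.18 and 573.03 TPM in KD. The groups were far apart relative to their spread, and IER3 fell by 1.03 on the log2 scale (SE 0.022, limma adjusted p = 4.52e-07), just past 2-fold after scaling.

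IER2, a nuclear protein linked to transcriptional control (chr19:13150415-13154908, plus strand), stood at 268.82, 271.71 and 273.54 TPM in shCtrl and at 136.30, 131.75 and 131.51 TPM in KD. The spread within the groups was again small, and the log2 difference was -0.78 (SE 0.028, limma adjusted p = 2.24e-06). With TPM as deposited it was -1.02, so whether IER2 counted as halved depended on the scaling. IER5, a regulator of the heat shock factor HSF1, stood at 23.08, 25.98 and 25.57 TPM in shCtrl and at 13.54, 13.71 and 14.18 TPM in KD. All KD libraries were below all shCtrl libraries, with a log2 difference of -0.57 (SE 0.06, limma adjusted p = 0.00025).

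The balance among the 3 IER genes was compared within libraries. The ratio of IER2 to IER3 within a library was 0.194, 0.198 and 0.207 in shCtrl and 0.246, 0.238 and 0.229 in KD, higher in every KD library than in every shCtrl library. The ratio of IER3 to IER5 moved from between 51.6 and 60 in shCtrl to between 40.4 and 40.9 in KD. Neither ratio overlapped between the groups. With 3 libraries against 3, an exact permutation test (two-sided) cannot give less than p = 0.1, which both ratios reached (0.125 after adjustment over the 10 within-family ratios).

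The KLF genes encode zinc finger factors that bind GC and CACCC boxes, and the log2 differences of the 4 ranged from -1.30 to -0.18. KLF2, best known in endothelium and T cells as a factor of quiescence, stood at 27.01, 44.19 and 46.15 TPM in shCtrl and at 13.63, 13.34 and 10.61 TPM in KD. Its shCtrl replicate 1 lay well below the other shCtrl libraries, which gave KLF2 the widest spread of the 10 genes in shCtrl (coefficient of variation 26.9%). The log2 difference was -1.30 (SE 0.21, limma adjusted p = 0.00195), and it was -1.55 without that library.

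KLF10, a factor induced early by TGF-beta, stood at 81.93, 76.24 and 76.42 TPM in shCtrl and at 40.04, 37.76 and 38.75 TPM in KD. The KD libraries clustered below all shCtrl libraries, and the log2 difference was -0.75 (SE 0.041, limma adjusted p = 1.13e-05).

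KLF6, a factor of wound response and growth control, stood at 96.91, 96.82 and 93.84 TPM in shCtrl and at 70.49, 65.56 and 71.06 TPM in KD. The groups did not overlap, and the difference was -0.22 (SE 0.034, limma adjusted p = 0.00135) after scaling and -0.47 with TPM as deposited. KLF4, which drives differentiation of intestinal epithelium, stood at 24.31, 23.18 and 24.56 TPM in shCtrl and at 18.53, 17.12 and 17.78 TPM in KD. It changed least of the 10, by -0.18 after scaling (SE 0.051, limma adjusted p = 0.024) and -0.41 with TPM as deposited. The call of KLF4 was not stable: its adjusted p was 0.0524 with scaling factors computed over all genes, and 0.0637 to 0.0776 in 4 of the 6 fits that left out 1 library, namely shCtrl replicate 1, shCtrl replicate 3, KD replicate 2 or KD replicate 3.

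Within libraries, KLF6 was 1.18, 1.27 and 1.23 times as abundant as KLF10 in shCtrl and 1.76, 1.74 and 1.83 times in KD, without overlap (exact permutation p = 0.1, the smallest possible, adjusted 0.125). The ratio of KLF4 to KLF6 overlapped between the groups, with 0.239 to 0.262 in shCtrl and 0.25 to 0.263 in KD (exact permutation p = 0.5). The ratio of KLF2 to KLF10 also overlapped, because shCtrl replicate 1, at 0.33, lay within the KD range of 0.274 to 0.353 (exact permutation p = 0.3). Of the 10 within-family ratios compared, 8 did not overlap between the groups. These ratios share genes, and the share without overlap among pairs of other genes was not computed.

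GADD45B, a small stress protein that binds kinases of the p38 and JNK pathways, fell most of the 10 genes. It lies on chromosome 19 (chr19:2476122-2478259, plus strand) and stood at 81.48, 85.88 and 83.37 TPM in shCtrl and at 17.29, 22.69 and 20.42 TPM in KD. The shCtrl libraries were tight and the KD libraries more spread, with coefficients of variation of 2.64% and 13.5%. The log2 difference was -1.77 (SE 0.095, limma adjusted p = 1.09e-05), the scaled KD mean was 28.6% of the shCtrl mean, and 0.50% of all genes tested had a difference as low or lower.

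**Figure D1:**
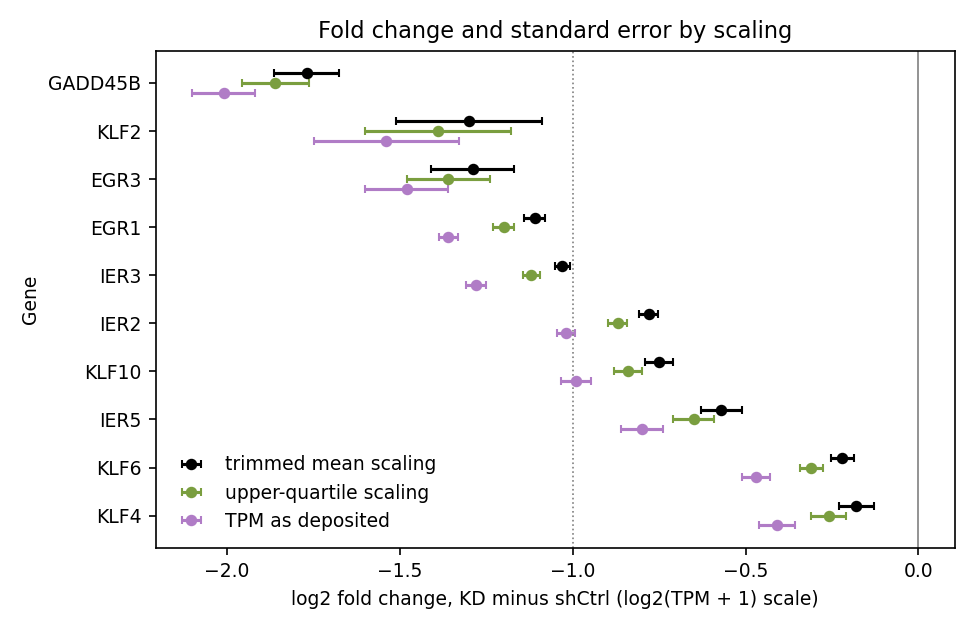
Log2 difference of each gene under 3 scalings. The x axis is KD minus shCtrl on log2(TPM + 1), points are estimates and bars are the SE from limma, the solid line marks no difference and the dotted line a 2-fold fall; every estimate lies below 0, from -2.01 for GADD45B with TPM as deposited to -0.18 for KLF4 with trimmed mean scaling.

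The order of levels was kept at the top and the bottom and changed in the middle. In shCtrl the order of mean TPM was IER3 (1359), IER2 (271), EGR1 (203), KLF6 (95.9), GADD45B (83.6), KLF10 (78.2), KLF2 (39.1), IER5 (24.9), KLF4 (24) and EGR3 (7.26). The ranges of GADD45B and KLF10, and those of IER5 and KLF4, overlapped there, and no other neighbours did. In KD the first 4 and the last kept their places, KLF10 (38.9) stood above GADD45B (20.1), KLF4 (17.8) stood above IER5 (13.8) without overlap, and KLF2 (12.5) came ninth. GADD45B overlapped with KLF4 and IER5 with KLF2 in KD. Summed over the 10 genes, TPM was 2154 to 2209 in shCtrl and 937 to 957 in KD.

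Over the 6 libraries, the profile of EGR1 was most like that of IER2 within the group (Pearson's r of log2 scaled levels 0.999), that of GADD45B most like IER3 (0.992) and that of KLF4 most like KLF10 (0.928). Among 7900 genes with a mean of at least 10 TPM, TIMP1 (r = 0.9998) and MRC2 (0.9998) were among the 3 most like EGR1. With 2 groups of 3 libraries, such values mostly follow the difference between the groups, and 432 of the 7900 genes had an r above 0.99 with EGR1.

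The 10 genes share a compact structure that the selection did not use. Their median annotated gene length was 4341 bases, with 9286 bases for the longest, KLF6, beside a median of 32031 bases for 12826 tested protein-coding genes. Their chosen transcripts had a median of 2.5 exons, beside 9, and those of IER2 and IER5 had a single exon. The pentamer AUUUA, the core of AU-rich elements, was present in the 3′ UTR of 8 of the 10 genes, beside 67.9% of the tested coding genes, with a median density of 1.96 per kb beside 1.51. IER5 had 10 copies and IER3 had 6 in a shorter UTR (8.14 per kb), whereas IER2 and GADD45B, the gene that fell most, had none. EGR3, IER2 and IER3 each overlap a non-coding gene on the other strand, and these 3 genes were listed at no more than 1.74 TPM in any library. Whether the reads were counted by strand is not given in the sources used here.

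The other genes of the EGR, IER, KLF and GADD45 families were split. Of 18 listed, 14 were tested, 7 fell, 4 rose and 3 were not called, with a median log2 difference of -0.37. The share called higher lay near the 28.5% of all genes tested, and the share called lower lay above their 25.9%. The largest falls were those of KLF13 (-1.27), EGR2 (-0.84), GADD45A (-0.74) and KLF5 (-0.67), a factor of proliferating crypt cells. KLF16 rose by 1.26, from 16.89, 20.63 and 18.49 TPM in shCtrl to 40.77, 39.79 and 35.95 TPM in KD, and was the only one of the families to rise at least 2-fold (2.93% of all genes were called with such a rise). KLF11 (0.31), IER5L (0.27) and KLF3 (0.25) were called higher with this scaling, but with TPM as deposited or upper-quartile scaling KLF16 alone was.

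Other immediate early genes were called lower more often than higher. Of 45 listed and tested, 33 (73.3%) fell, 18 of them at least 2-fold, 8 (17.8%) rose and 4 were not called. Of all genes tested, 25.9% were called lower, 4.24% were called with a fall of at least 2-fold, and 28.5% were called higher. The median log2 difference of the 45, -0.78, was near that of the 10 genes. The largest falls were those of the matricellular genes CCN2 (-3.67) and CCN1 (-2.58), of AMOTL2 (-2.12) and of the chemokine CXCL8 (-1.81). Rises were seen for the phosphatase DUSP2 (1.35), the kinase SIK1 (1.18), the nuclear receptor NR4A2 (1.02) and the mRNA decay factor ZFP36L2 (0.85). Of their relatives in this list, NR4A1 (-0.73), ZFP36L1 (-1.06), ZFP36 (-0.53), DUSP5 (-1.66), DUSP6 (-0.95) and DUSP1 (-0.71) fell, and NR4A3 was not called. Of the JUN and FOS genes of AP-1 in this list, FOSL1 (-1.74), JUN (-1.66), FOS (-1.36) and JUNB (-0.21) fell, and FOSB (-0.18) was not called.

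The transcripts of factors and kinases upstream of immediate early promoters showed no common direction. Of 30 listed, 29 were tested, 7 fell, 10 rose and 12 were not called, with a median of 0.06. The shares called lower (24.1%) and higher (34.5%) lay near the 25.9% and 28.5% of all genes tested. With TPM as deposited 15 fell and 4 rose, so the balance of this list depended on the scaling. The median was then -0.17, beside -0.20 for all genes tested, and the shares of all genes called with that scaling are not given here. SRF, which encodes serum response factor, stood at 15.38, 15.11 and 16.39 TPM in shCtrl and at 21.90, 20.72 and 21.25 TPM in KD, and rose by 0.66 (limma adjusted p = 7.88e-05). ARAF (0.76), CREBBP (0.66) and RPS6KA4 (0.61) also rose, and all 4 kept their sign and call under each scaling. The largest falls were those of NRAS (-1.03), MAPK14 (-0.83), the receptor EGFR (-0.75) and RPS6KA2 (-0.66). Phosphorylation and protein levels were not measured in these libraries.

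Reference genes commonly used as stable standards were compared in the same way. Of 12, 9 were called higher, 3 were not called and none was called lower with limma, and the median was 0.25. Beside them, 28.5% of all genes tested were called higher and 25.9% were called lower. None of the 12 had an unadjusted p under 0.05 on the lower side, while 4 were called lower with TPM as deposited. The share of all genes called lower with TPM as deposited is not given here. RPLP0 (1.13) and ACTB (1.05) rose most, followed by HPRT1 (0.60) and PPIA (0.29), and with TPM as deposited PPIA was at 0.04 and not called. The median of the 12 was 0.01 with TPM as deposited, so the median of 0.25 equals the shift made by the scaling. No reference gene was as low as the smallest fall of the 10 immediate early genes, the lowest being YWHAZ at -0.04.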

How the data were processed

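The authors prepared poly-A selected libraries with a TruSeq kit, and the submitters' processing notes name Trimmomatic 0.27, TopHat2 2.1.1 and the build GRCh38.p13. The authors deposited TPM per Ensembl gene for each of the 6 libraries, and their methods name DESeq2 for their own comparison. Since TPM is not a count, limma 3.58.1 in R 4.3.3 was used here.

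A gene was tested when 3 or more libraries reached 0.5 TPM. Libraries were scaled by a trimmed mean of M-values (30% of M and 5% of A trimmed) computed on the tested genes, and log2(TPM + 1) was fitted with a variance trend, without a replicate block. The factors were first computed over all genes with a value. They were changed after the values of the 10 genes under both versions had been seen, to match how the data had been handled earlier, and the first version is kept as an alternative. Adjusted p-values cover all 16901 genes. The fit was also run on simulated data in which far fewer genes changed than were called here. That run cannot show how the scaling acts on the present calls. Pearson's r between libraries was 0.9847 to 0.9874 within groups and 0.9562 to 0.9578 between them, and 2 genes with broken lines were left out.

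The members and gene lists were chosen with earlier results of these data known. The genes named are the 10 members, GMDS-AS1, up to 4 largest falls and rises among the called genes of each list, and the genes most like EGR1. A few genes that the rule takes in are counted but not reported here. Other genes named, among them MYC, JUN, FOS, NR4A1, YWHAZ and the markers, were picked for context after their values were seen. Gene models came from GENCODE 29, of which 16686 of the tested identifiers were found, and promoters from RefSeq. The labels do not say what libraries with the same replicate number share, and no pairing by number was seen. Libraries with the same number deviated from their group means with r of 0.029, -0.0376 and 0.0142. For unlike numbers r ranged from -0.0945 to 0.077. Alternatives covered scaling, pseudocount, filter, variance trend, replicate block and leaving out each library.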

Additional observations from a re-analysis of the deposited data

How the results depend on the processing

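Of the 10 genes, 9 kept their direction and call in all 14 alternatives, and KLF4 kept its call in 9 of 14. KLF4 lost it with factors over all genes (-0.14, adjusted p = 0.0524), the version first used, listed as an alternative after the data were seen, and in 4 of 6 fits without 1 library. The count called at least 2-fold lower was 4 to 6. Tested with limma's treat, which asks whether a change exceeds 2-fold, 1 gene passed, beside the 5 called with a fall of at least 2-fold. GMDS-AS1 lost its call with no filter on low values (-0.41, adjusted p = 0.132), where more genes are tested, and ranged from -0.51 to -0.30 (adjusted p 0.0277 to 0.112) without 1 library.

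With TPM as deposited, the number called higher was 1 for the rest of the families, 4 for upstream factors, 2 for EGR corepressors and targets and 3 for reference genes, and the number called lower was 15 for upstream factors and 4 for reference genes. With upper-quartile scaling, 1 of the families and 3 of the targets were higher and 1 reference gene was lower. With no filter, 3 of the targets were higher. Without 1 library, the number called higher was 2 to 3 for the families and 3 to 5 for the targets. The cause of these moves in the targets and families was not tested, beyond the shift of all genes that the scaling makes. The shares of all genes called under these alternatives are not given here.

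With the replicate number as a block, though no pairing by number was seen, GMDS-AS1 had -0.41 (limma adjusted p = 0.0518) and 2 of the families were higher. KLF4 then had a limma adjusted p of 0.0453, and all 10 genes were called lower. TPM keeps no depth, so counting error could not be given.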

Other observations

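Corepressors of EGR proteins, textbook targets of EGR and KLF factors, and kinases bound by the GADD45B protein moved in both directions. Of 11, 4 (36.4%) were called lower, 6 (54.5%) higher and 1 was not called, with a median log2 difference of 0.14. Of all genes tested, 25.9% were called lower and 28.5% higher. Targets that are activated, targets that are repressed and kinases bound as proteins were not separated in this list. The corepressors of EGR proteins, NAB1 (-0.52) and NAB2 (-0.43), were both lower. SMAD7, an inhibitor of TGF-beta receptors, stood at 6.98, 6.81 and 8.75 TPM in shCtrl and at 0.73, 0.29 and 0.53 TPM in KD. Its log2 difference was -2.34 (limma adjusted p = 2.61e-05), and TGFB1 was at -0.38. MAP2K7, the JNK pathway kinase that GADD45B binds, stood at 11.98, 21.52 and 12.90 TPM in shCtrl and at 30.76, 30.19 and 31.80 TPM in KD, with a difference of 1.24 (limma adjusted p = 0.00162). SP1 (0.30) was higher with this scaling. With TPM as deposited, 2 of the 11 were called higher and the median was -0.11, beside -0.20 for all genes tested.

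MYC, listed with the immediate early genes, stood at 354.67, 368.04 and 345.92 TPM in shCtrl and at 404.60, 396.69 and 402.89 TPM in KD, a log2 difference of 0.42 (limma adjusted p = 1.50e-05), in the direction opposite to that of the 10 genes. With TPM as deposited the MYC difference was 0.17.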
